A study of Mus musculus with 93 samples.

Results

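The livers of 5 wild-type (WT) mice given C22:6 were set directly against those of 5 WT mice given C18:1, without the control mice. C22:6 is a triglyceride made only of docosahexaenoic acid, the long n-3 fatty acid of fish oil, and C18:1 is one made only of oleic acid, the main fatty acid of olive oil. The fatty acids differ in length (22 against 18 carbons) and in their number of double bonds (6 against 1). The 10 arrays were picked by their labelled genotype and treatment from the 93 arrays of the series, with no measured value used, and every probeset other than the control spots of the array was tested.

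All mice were male, were fasted for 4 h, received 400 µl by gavage and were killed 6 h later, and each array held the liver RNA of 1 mouse. Before the experiment the mice were kept on a run-in diet in which olive oil replaced corn oil. All groups had thus eaten olive oil before the gavage. The WT mice were of strain 129S1/SvImJ and the PPARα-/- mice, 5 for each of the same triglycerides, of strain 129S4/SvJae, so that genotype and substrain cannot be told apart. The fatty acid groups carry a labelled age of 8 to 24 weeks, and the vehicle (3 WT mice) and WY14643 groups (4 WT mice) one of 12 to 20 weeks. PPARα is missing from birth and from every tissue of the null mice. With 1 time point, 1 dose volume and the vehicle mice left out of the main contrast, a difference can lie on either side, higher with one triglyceride or lower with the other. In whole liver, fewer cells of a type and less RNA per cell cannot be told apart.

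PPARα is a nuclear receptor of hepatocytes that binds fatty acids and synthetic agonists such as WY14643. It pairs with RXR on direct repeats in the DNA near its target genes. It is known above all for switching on, during fasting, the genes that carry fatty acids into mitochondria and peroxisomes and break them down, with ketone bodies as an end product. Polyunsaturated fatty acids are also known to lower the activity of SREBP-1, the factor that drives the genes of fatty acid synthesis.

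The array medians lay between 136.5 and 142.0 signal units in the 10 arrays. The level of the 5 measured hepatocyte markers (among them Alb), as the log2 of their mean linear signal, was 13.30 to 13.44 with C18:1. It was 13.28 to 13.44 with C22:6, so the tissue label matched its markers. The fifth array of each group stood apart: its mean correlation with the other arrays of its group was 0.959 for C18:1 (0.976 to 0.979 for the others) and 0.970 for C22:6 (0.979 to 0.982). Both had the highest signals of stress-inducible chaperones in their group. Hspb1, a small heat shock protein, had a log2 signal of 4.67, 6.47, 4.36, 5.75 and 9.28 with C18:1 and of 6.98, 7.13, 5.00, 5.06 and 8.79 with C22:6. The null mice given C22:6 were the most variable of the 4 groups, with mean correlations of 0.932 to 0.952 against 0.975 to 0.977 in the null mice given C18:1.

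Of 6661 genes, each read from its brightest probeset, 194 were higher with C22:6 than with C18:1 (2.91% of all genes) and 83 were lower (1.25%), at an adjusted p under 0.05 by limma with Benjamini-Hochberg adjustment over all 11412 probesets. The genes that were higher differed by a median of 0.67 on the log2 scale (range 0.18 to 3.35), and 41 of them differed by at least 1. Those that were lower differed by a median of 0.60 (0.22 to 1.53), and 10 of them by at least 1. The 5 arrays of one group lay wholly above the 5 of the other for 119 of the 194 and wholly below for 44 of the 83; over all genes this held for 3.18% and 2.43%. At the threshold of the study, an unadjusted p under 0.01, the counts were 306 (4.59%) and 239 (3.59%). Without replicate 5 of both groups 115 genes were higher and 38 lower at the adjusted threshold. Without C22:6 replicate 5 alone 144 genes passed in all, and without C18:1 replicate 4 184 passed. In each of these fits the sign of the difference of every one of the 277 genes was kept. The count was 116 where only the 2 groups were fitted and 84 with a replicate block.

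Without replicate 5 of both groups 131 of the 277 genes passed. Of the genes described below, Acaa1a, Acacb, Acad11, Acot3, Agpat2, Crot, Decr1, Ech1, Etfdh, F11, Insig1, Limd2, Mgll, Mttp, Pex19, Pex3, Plin2, Proc, Slc16a1, Tmtc2, Tor3a, Txnrd1 and Vasn then missed the threshold, with an adjusted p from 0.053 for Acot3 to 0.58 for Agpat2. Signals at or under the 10th percentile of their array were taken as the floor, where a level is only a bound. For some genes part of a group was there, so that the size given for them is not exact: with C18:1 this was so in 2 arrays for Pdk4 and in 3 each for Acacb, Cyp4a31 and Tmtc2, and with C22:6 in 3 arrays for Mid1ip1, 4 for Ppp1r14a and 1 for Avpr1a.

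Genes known as targets of PPARα stood on the side of C22:6. Of 41 listed, 31 were measured, 19 were higher with C22:6, none was lower, and all 31 differences were positive. The counts of this list and of those below stand beside 2.91% of all genes higher and 1.25% lower. The number higher was 14 without replicate 5 of both groups, 7 where only the 2 groups were fitted and 11 with a replicate block. Their median difference was 0.73 on the log2 scale, beside -0.03 over all genes. The 5 C22:6 arrays lay wholly above the C18:1 arrays for 12 of the 31 (3.18% of all genes). The list shares members with the lists of fatty acid oxidation, thioesterases and lipid droplets described below, so these counts are not separate.

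Ehhadh, which carries out a pair of steps of peroxisomal β-oxidation, had a log2 signal of 10.85, 10.38, 10.19, 10.37 and 11.30 in the C18:1 livers and of 12.45, 12.41, 11.27, 12.07 and 12.87 in the C22:6 livers. Only C22:6 replicate 3 and C18:1 replicate 5 overlapped. The level was 3.02-fold higher with C22:6 (log2 difference 1.60, SE 0.23, limma adjusted p = 1.3e-06). Pdk4, the kinase that shuts off pyruvate dehydrogenase and thereby spares glucose, had 6.09, 3.30, 3.86, 4.94 and 6.98 with C18:1 and 9.54, 8.09, 5.68, 7.86 and 8.70 with C22:6. The mice of both groups spread over more than 3 log2 units, with C22:6 replicate 3 below the highest C18:1 livers. Pdk4 was higher with C22:6 (fitted log2 difference 2.94, SE 0.61, adjusted p = 0.001), with C18:1 replicates 2 and 3 at the floor.

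The same mouse tended to be low or high for many targets. C22:6 replicate 3 was the lowest of its group for 28 of the 31 targets, and C18:1 replicate 5 the highest of its group for 19. Set against the mean of the C18:1 arrays, the median over the targets was 0.97, 0.82, 0.30, 0.71 and 1.15 in C22:6 replicates 1 to 5, and 0.08, -0.12, -0.08, -0.07 and 0.21 in C18:1 replicates 1 to 5. Every C22:6 liver was thus above every C18:1 liver by this measure, and the weakest C22:6 liver was close to the strongest C18:1 liver.

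**Figure D1:**
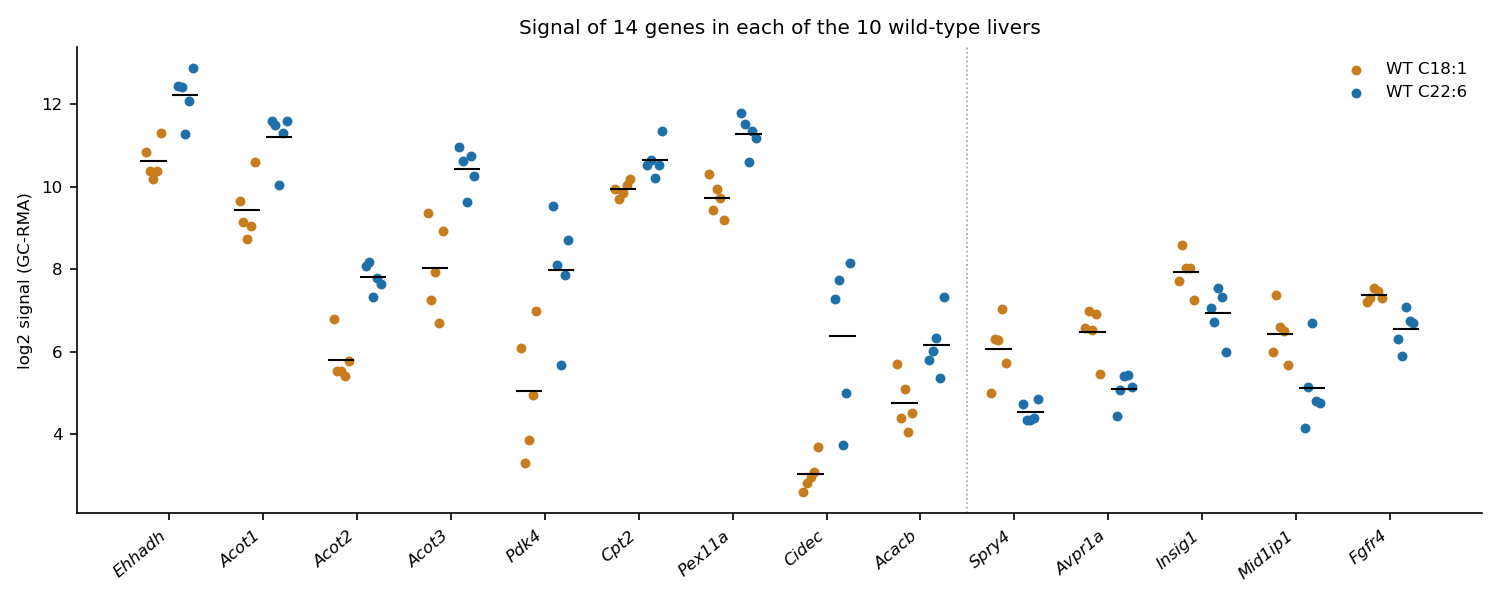
Log2 signal (vertical axis) of 14 genes in each of the 10 WT livers, with 1 point per array and the C18:1 and C22:6 groups side by side. A short black bar marks each group mean, and the dotted line parts the 9 genes higher with C22:6 from the 5 that were lower. Cpt2, Pex11a and Acot2 separate the groups completely, the lowest C22:6 point is at 11.27 for Ehhadh and at 5.68 for Pdk4 (both replicate 3), and Spry4 and Avpr1a run the other way.

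The bases just before the transcription start are shown for 3 targets that were higher with C22:6 and for Fabp1, a classical target that did not pass the test. Fabp1 was picked because it is the only measured target with the repeat described below. It therefore does not stand for the other targets that did not pass. Fabp1, the fatty acid binding protein of the hepatocyte cytosol, differed by 0.05 (95% interval -0.15 to 0.25). The sequences are those of RefSeq, build GRCm38.p6, with 250 bases each, 5′ to 3′ on the strand of the gene. Capitals mark the letters AGGNCA or their reverse complement, the hexamer that nuclear receptors of this class are known to read. They are at chr16:21787835-21788084 on the minus strand (Ehhadh), chr6:5496279-5496528 on the minus strand (Pdk4), chr12:84009252-84009501 on the plus strand (Acot1) and chr6:71199629-71199878 on the plus strand (Fabp1).
Ehhadh: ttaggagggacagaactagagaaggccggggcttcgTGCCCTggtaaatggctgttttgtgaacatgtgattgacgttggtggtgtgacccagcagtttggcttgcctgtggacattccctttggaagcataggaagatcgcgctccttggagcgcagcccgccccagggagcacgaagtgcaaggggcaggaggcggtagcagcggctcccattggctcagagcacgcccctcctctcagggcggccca
Pdk4: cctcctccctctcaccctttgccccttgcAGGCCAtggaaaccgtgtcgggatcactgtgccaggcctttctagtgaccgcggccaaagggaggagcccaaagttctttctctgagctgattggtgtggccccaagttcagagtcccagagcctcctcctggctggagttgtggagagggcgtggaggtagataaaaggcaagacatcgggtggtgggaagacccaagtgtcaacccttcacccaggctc
Acot1: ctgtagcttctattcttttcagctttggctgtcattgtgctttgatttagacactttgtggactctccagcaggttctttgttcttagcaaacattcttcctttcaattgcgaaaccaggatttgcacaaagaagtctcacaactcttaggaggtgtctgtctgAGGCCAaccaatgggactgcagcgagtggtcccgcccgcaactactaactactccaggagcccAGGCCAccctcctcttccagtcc
Fabp1: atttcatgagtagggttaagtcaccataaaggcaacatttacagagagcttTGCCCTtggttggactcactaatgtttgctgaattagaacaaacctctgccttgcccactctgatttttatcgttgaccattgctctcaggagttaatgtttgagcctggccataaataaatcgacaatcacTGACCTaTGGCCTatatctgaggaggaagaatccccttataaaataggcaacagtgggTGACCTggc

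AGGNCA repeated with 1 base between, searched on both strands of these 250 bases, is the binding motif usually given for PPARα with RXR. It was found for Fabp1, 67 to 55 bases before the start, and for no other of the 27 measured targets that have a promoter in the table (3.7%). It was found for none of the 162 higher genes with a promoter, for 1 of the 71 lower genes (1.41%), for 0.438% of the genes on the array and for 0.4% of all genes of the table. The single hexamer, searched after the repeat had been found in none of the higher genes, was present in 59.9% of the higher genes, 50.7% of the lower genes, 74.1% of the measured targets and 53.1% of the genes on the array. A match is only a stretch of letters, and a window without one says nothing about sites farther away.

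For transport into mitochondria and β-oxidation there, the genes that passed lay in one direction. Of 22 measured genes 10 were higher with C22:6 and none lower, with a median difference of 0.29 (-0.03 over all genes). Of the 22 differences 20 were positive, and 12 of the 22 genes did not pass. Without replicate 5 of both groups 7 passed, and 3 did where only the 2 groups were fitted and also with a replicate block. Slc25a20, the carrier that brings acylcarnitines across the inner membrane, had 10.27, 10.11, 10.14, 10.12 and 10.00 with C18:1 and 11.10, 10.93, 10.61, 10.84 and 10.92 with C22:6. The groups were fully apart and tight (log2 difference 0.75, SE 0.13, adjusted p = 7.5e-05). Cpt2, which regenerates acyl-CoA inside, was 1.63-fold higher (log2 0.71, SE 0.12, adjusted p = 2.3e-05) and its groups too were fully apart, with at most 10.19 with C18:1 and at least 10.20 with C22:6. Crat, which makes short acylcarnitines, had 8.00, 7.97, 7.77, 7.77 and 7.67 with C18:1 and 9.63, 9.53, 8.37, 9.49 and 9.86 with C22:6. It was 2.91-fold higher (SE 0.27 on the log2 scale, adjusted p = 9e-05), with replicate 3 again the lowest of the C22:6 livers.

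The carnitine transporter Slc22a5 was 2.69-fold higher (log2 1.43, adjusted p = 0.00013). The enzymes of the spiral itself differed less: Eci1, which shifts double bonds so that unsaturated chains can be degraded, by 0.57 (adjusted p = 0.00045), Hadha of the trifunctional protein by 0.43 (0.0013), the electron carrier oxidoreductase Etfdh by 0.40 (0.006), the medium-chain dehydrogenase Acadm by 0.34 (0.0013), the dienoyl-CoA reductase Decr1 by 0.30 (0.029) and Acad11 by 0.28 (0.048). Their changes are all below 1.5-fold. Cpt1a, the regulated gate of carnitine transport, did not pass the test (0.24, 95% interval -0.01 to 0.49), nor did Acadl (0.23, -0.01 to 0.48), Acadvl (0.09, -0.05 to 0.24) and Hadhb (0.21, -0.03 to 0.46). Acads, for short chains, missed the threshold with 0.92 (0.35 to 1.50, adjusted p = 0.052).

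Among 17 measured genes of peroxisomal β-oxidation 6 were higher, with a median of 0.25. Besides Ehhadh these were the α-oxidation lyase Hacl1 (0.89, adjusted p = 0.0075), the carnitine octanoyltransferase Crot (0.56, 0.034), the fatty acyl-CoA importer Abcd3, the isomerase Ech1 (0.50, 0.017) and the thiolase Acaa1a (0.47, 0.021). Abcd3 had 11.84, 11.71, 11.81, 11.75 and 11.64 with C18:1 and 12.39, 12.27, 11.99, 12.34 and 12.45 with C22:6, a small shift with no overlap (0.54, SE 0.09, adjusted p = 2.2e-05). Without C22:6 replicate 1, without C22:6 replicate 5, without replicate 5 of both groups, and where only the 2 groups were fitted, 3 genes of the list passed, and 2 passed with a replicate block.

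The proteins that build peroxisomes gave 5 of 14 measured genes higher and none lower, with a median of 0.29. Pex11a, which makes peroxisomes elongate and divide, had 10.31, 9.42, 9.93, 9.72 and 9.18 with C18:1 and 11.79, 11.51, 10.59, 11.34 and 11.18 with C22:6. The difference was 2.97-fold with no overlap (log2 1.57, SE 0.24, adjusted p = 1.1e-05). Smaller differences were found for the docking protein Pex14 (0.56, adjusted p = 0.00012), for Pex13 of the same complex (0.40, 0.0004), and for Pex19 (0.52, 0.0055) and Pex3 (0.42, 0.0076), which insert peroxisomal membrane proteins. Of the list 3 genes passed without replicate 5 of both groups, 2 where only the 2 groups were fitted and 1 with a replicate block.

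Acyl-CoA thioesterases, which release free fatty acids from their CoA esters, and the cytochromes of ω-oxidation held some of the largest differences, with 7 of 18 measured genes higher (4 where only the 2 groups were fitted) and a median of 0.31. Acot2 of the mitochondrion had 6.79, 5.52, 5.52, 5.41 and 5.76 with C18:1 and 8.07, 8.18, 7.33, 7.79 and 7.64 with C22:6. The groups did not overlap, although C18:1 replicate 1 stood above its group (4.01-fold, log2 2.00, SE 0.33, adjusted p = 2.1e-05). Acot1 of the cytosol had 9.66, 9.15, 8.72, 9.04 and 10.59 with C18:1 and 11.59, 11.50, 10.05, 11.30 and 11.59 with C22:6, where the lowest C22:6 liver lay below the highest C18:1 liver (3.42-fold, log2 1.77, SE 0.33, adjusted p = 0.00019).

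The peroxisomal Acot3 had 9.36, 7.25, 7.94, 6.69 and 8.92 with C18:1 and 10.97, 10.62, 9.62, 10.73 and 10.25 with C22:6. It was 5.29-fold higher, but the C18:1 livers were so scattered that the SE was 0.70 and the adjusted p 0.031. It missed the threshold without C18:1 replicate 4 (2.07, adjusted p = 0.13) and without any one of 6 other arrays. Acot4 (log2 1.52, adjusted p = 0.00078) and Acot8 (0.85, 0.00035), both peroxisomal, were higher as well. Acot1 to Acot4 are near-identical neighbours whose probes may share RNA, which was not tested. Cyp4a14, an ω-hydroxylase, was 3.14-fold higher (log2 1.65, SE 0.41, adjusted p = 0.0075) and its relative Cyp4a31 was higher too (fitted log2 difference 2.25, SE 0.44, adjusted p = 0.0004), with 3 of the C18:1 arrays at the floor and the same reservation on shared probes. Vnn1, a pantetheinase and a target outside this list, was 2.80-fold higher (log2 1.49, adjusted p = 0.00011).

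Genes of lipid droplets and of the hydrolysis of stored fat were higher in 5 of 11 measured cases, with a median of 0.65. Cidec, which fuses droplets, had 2.59, 2.81, 2.97, 3.09 and 3.68 with C18:1 and 7.28, 7.73, 3.73, 5.00 and 8.15 with C22:6. All C18:1 livers were among the lowest 10% of signals of their arrays, where a level is only a bound, so Cidec was higher by at least 1.45 on the log2 scale. The C22:6 livers ran from near that floor to a clear signal, and the limma fit gave an adjusted p of 0.00012. Fitm2, which partitions fat into droplets, had 7.14, 6.35, 6.81, 7.04 and 7.50 with C18:1 and 8.16, 8.13, 7.39, 7.82 and 8.50 with C22:6 (2.04-fold, log2 1.03, SE 0.16, adjusted p = 1.5e-05), with C22:6 replicate 3 just inside the C18:1 range. The lipases Pnpla2 of triglycerides (0.85, adjusted p = 0.0024) and Mgll of monoglycerides (0.65, 0.0075) were higher, as was the droplet coat Plin2 (0.73, 0.037). G0s2, the inhibitor of Pnpla2, missed the threshold with 1.32 (0.45 to 2.20, adjusted p = 0.069). The count was 3 without C22:6 replicate 5 and also without replicate 5 of both groups, 2 with a replicate block, and by limma 0 where only the 2 groups were fitted (6 at an unadjusted p under 0.01).

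Entry and activation of fatty acids gave no call. None of the 16 measured genes passed in either direction and their median was 0.01. At the shares over all genes (2.91% higher and 1.25% lower) a list of this size would hold few calls or none. Cd36, the fatty acid translocase, differed by 0.23 (-0.32 to 0.79) and the transporter Slc27a2 by 0.16 (-0.03 to 0.35). Of 5 measured ketone body genes, Slc16a1, the monocarboxylate exporter, was higher (0.67, adjusted p = 0.028), and Fgf21, the fasting hormone of the liver, had 1.01 (0.14 to 1.88, adjusted p = 0.20). Of 19 measured subunits of the respiratory chain none passed, with a median of 0.01. Mttp, which loads fat onto apolipoprotein B, was the only 1 of 15 genes of lipoproteins to pass, at 0.48 higher (adjusted p = 0.0024).

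**Figure D2:**
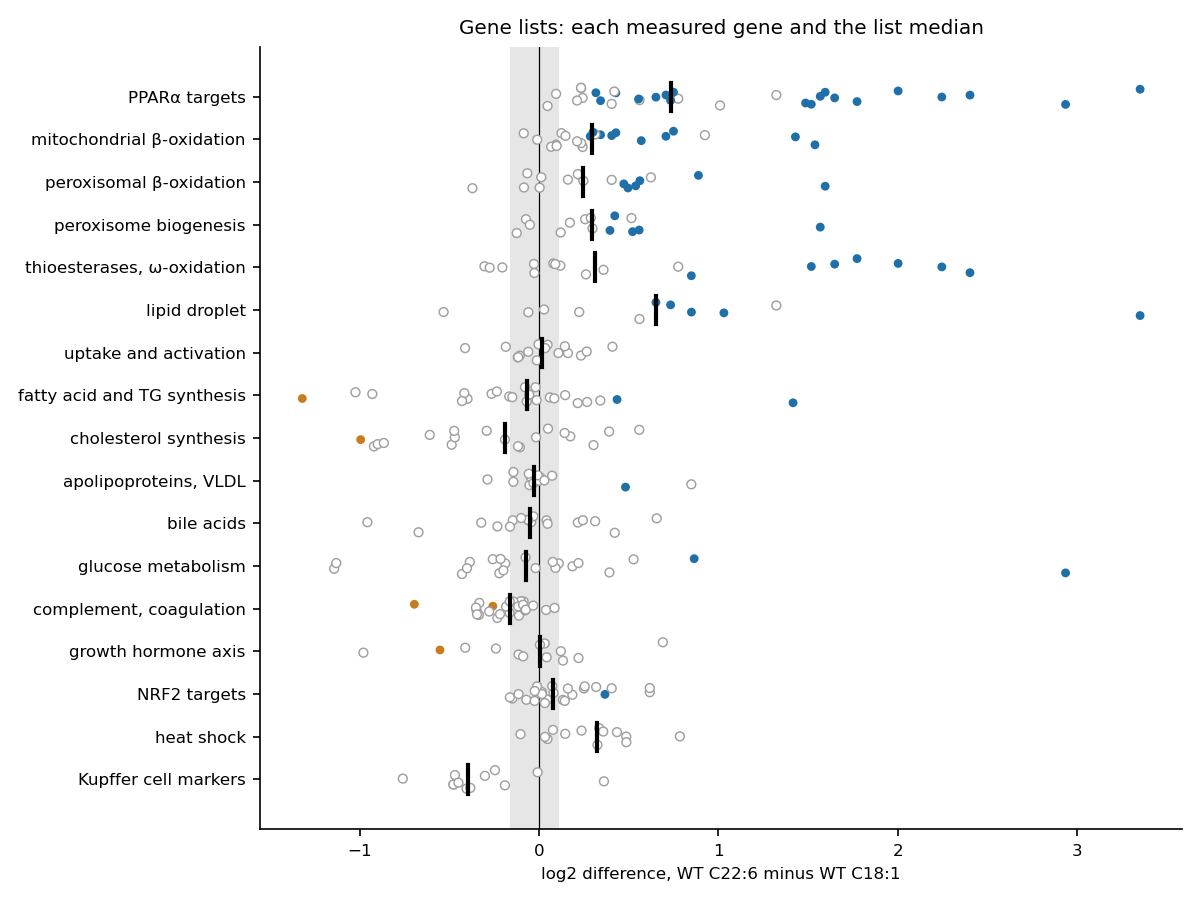
Log2 difference, C22:6 minus C18:1 in WT liver (horizontal axis), of every measured gene of 17 lists (rows), with a bar at the median of the list, filled points for an adjusted p under 0.05 (blue where higher with C22:6, orange where lower), open points for the rest, and a grey band for the middle quartiles of all 6661 genes (-0.16 to 0.11). The lists of PPARα targets (median 0.73) and lipid droplets (0.65) lie farthest to the right, while fatty acid uptake (0.01) is centred within the band and the Kupffer cell markers lie farthest to the left (-0.39).

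Fatty acid synthesis showed no common direction. Of 23 measured lipogenic genes 2 were higher and 1 lower, with a median of -0.07. Mid1ip1, a protein that helps acetyl-CoA carboxylase to polymerise, had 5.99, 7.37, 6.59, 6.51 and 5.68 with C18:1 and 4.14, 5.13, 6.70, 4.81 and 4.76 with C22:6. It was lower with C22:6 in all livers but replicate 3 (-1.32, SE 0.37, adjusted p = 0.025; without C18:1 replicate 2 -1.09, adjusted p = 0.12). Acacb, the mitochondrial acetyl-CoA carboxylase, whose product blocks Cpt1, had 5.70, 4.39, 5.10, 4.05 and 4.51 with C18:1 and 5.80, 6.02, 6.32, 5.35 and 7.33 with C22:6. It was higher by 1.42 (SE 0.43, adjusted p = 0.043), with the highest level in C22:6 replicate 5, without which the difference was 1.12 (adjusted p = 0.22). Agpat2, an acyltransferase of triglyceride synthesis, was higher by 0.43 (adjusted p = 0.043).

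The SREBP-1 gene Srebf1 did not pass with C22:6 against C18:1 (-0.93, interval -1.69 to -0.17, adjusted p = 0.18), nor did Thrsp (-1.02, -1.86 to -0.19, adjusted p = 0.17). The fatty acid synthase Fasn (-0.17, -0.86 to 0.53), the Δ9-desaturase Scd1 (0.06, -0.19 to 0.31), and the desaturases of polyunsaturated chains Fads1 (-0.16, -0.47 to 0.14) and Fads2 (-0.09, -0.55 to 0.36) did not pass either. The intervals of these last 4 genes stayed within 1 log2 unit of 0. Of 19 measured genes of cholesterol synthesis and uptake 1 was lower: Insig1, which holds SREBP in the endoplasmic reticulum, had 7.70, 8.59, 8.03, 8.03 and 7.26 with C18:1 and 7.06, 6.72, 7.53, 7.33 and 5.99 with C22:6. The groups overlapped, and Insig1 was 1.99-fold lower with C22:6 (SE 0.29 on the log2 scale, adjusted p = 0.036), with a log2 difference of -0.76 without C22:6 replicate 5 (adjusted p = 0.22). The median of that list was -0.19. The letters TCACNCCAC, close to the classical sterol element, were found in 3 of the 71 lower genes (4.23%), 3 of the 162 higher genes (1.85%) and 1.5% of the genes on the array. The 3 lower genes were Slc9a3r2, Stard3 and Syt1, so neither Insig1 nor Mid1ip1 was among them. Ehhadh was among the 3 higher genes.

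The largest fitted difference among the 83 lower genes was that of Spry4. Spry4, an inhibitor of receptor tyrosine kinase signalling, had 5.00, 6.31, 6.29, 7.02 and 5.72 with C18:1 and 4.72, 4.35, 4.35, 4.40 and 4.84 with C22:6. All C22:6 livers were among the lowest 10% of signals, so Spry4 was lower by at least 1.13 on the log2 scale (adjusted p = 0.001). Avpr1a, the vasopressin receptor of hepatocytes, had 6.56, 6.98, 6.52, 6.91 and 5.45 with C18:1 and 4.43, 5.07, 5.41, 5.43 and 5.15 with C22:6 (-1.38, SE 0.31, adjusted p = 0.003), so that C18:1 replicate 5 came close to the C22:6 livers without overlap. Limd2 was lower by 1.32 without overlap, with at least 7.71 with C18:1 and at most 7.25 with C22:6. Vasn passed without overlap too, but all C22:6 arrays and most C18:1 arrays were at the floor, so no size is given.

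Fgfr4, the receptor for the bile acid signal of the gut, had 7.20, 7.29, 7.53, 7.48 and 7.30 with C18:1 and 6.30, 5.89, 7.09, 6.75 and 6.68 with C22:6. It was 1.76-fold lower with C22:6 with no overlap (-0.82, SE 0.21, adjusted p = 0.012). Jak2, the kinase of the growth hormone receptor, had 6.34, 6.27, 6.35, 6.31 and 6.21 with C18:1 and 5.62, 5.30, 6.04, 5.84 and 5.90 with C22:6 (-0.55, SE 0.13, adjusted p = 0.0056) and was the only 1 of 13 genes of the growth hormone axis to pass. Both missed the threshold without C22:6 replicate 2, Fgfr4 with an adjusted p of 0.09 and Jak2 with 0.058. Gcnt2, a branching glycosyltransferase, was lower by 0.84 on the log2 scale in its brightest probeset (-0.84, adjusted p = 0.0037), and its other probeset did not pass. It is the gene among the 71 whose promoter holds the repeat, 158 to 146 bases before 1 of its starts, in the window chr13:40886508-40886757 on the plus strand of GRCm38.p6, printed here because it is the one match among all called genes.
Gcnt2: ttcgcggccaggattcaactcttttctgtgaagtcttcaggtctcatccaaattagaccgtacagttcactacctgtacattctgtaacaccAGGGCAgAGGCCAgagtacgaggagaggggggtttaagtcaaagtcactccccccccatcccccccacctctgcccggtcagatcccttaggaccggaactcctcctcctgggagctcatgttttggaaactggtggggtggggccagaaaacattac

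Complement and coagulation gave 2 lower genes of 24 measured, with a median of -0.16 and 2 of the 24 differences above 0. At an unadjusted p under 0.01, 9 of the 24 were lower (3.59% of all genes). F11, coagulation factor XI, had a log2 signal of 9.12 to 9.80 with C18:1 and of 8.49 to 9.35 with C22:6, with C22:6 replicate 3 inside the C18:1 range (-0.70, SE 0.18, adjusted p = 0.012; without replicate 5 of both groups -0.60, adjusted p = 0.11). The anticoagulant Proc was lower by a small amount (-0.26, adjusted p = 0.027; without replicate 5 of both groups -0.18, adjusted p = 0.31).

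Several of the largest differences in the other direction lay outside every list. Ddhd2, an intracellular triglyceride and phospholipid lipase, had the smallest p of all genes. It had 7.12, 6.65, 6.61, 6.55 and 6.30 with C18:1 and 7.87, 7.79, 7.70, 7.88 and 8.04 with C22:6 (2.31-fold, log2 1.21, SE 0.15, adjusted p = 1e-07), and unlike most targets its C22:6 livers were close together. Enc1, an actin-binding protein best known from neurons, had 4.80, 4.64, 4.06, 4.50 and 3.69 with C18:1, all near the floor, and 7.61, 6.52, 5.27, 6.14 and 6.63 with C22:6, a difference of at least 1.50 on the log2 scale (adjusted p = 2.9e-05). Atp10d, a lipid flippase, was 3.39-fold higher (log2 1.76, SE 0.28, adjusted p = 1.5e-05). Pctp, a carrier of phosphatidylcholine, was 2.54-fold higher (log2 1.34, adjusted p = 0.00043), Alpl, alkaline phosphatase, 2.56-fold (1.36, 0.00011), and Tmtc2 was higher by a fitted 1.20 on the log2 scale (adjusted p = 0.002). For Rfx4, a transcription factor, the C18:1 livers were at the floor and the difference was at least 0.47 (adjusted p = 1.3e-05). Lamb3 was at the floor in both groups, and Tor3a and Cbfa2t3 gave no bound above 0, so no fold is given for them.

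Single genes passed in lists that had few calls. Txnip, which restrains glucose uptake, was higher by 0.86 (adjusted p = 0.042, lost without C18:1 replicate 2 at 0.70, adjusted p = 0.18), and it and Pdk4 were the 2 of 21 measured genes of glucose metabolism that passed. Txnrd1, thioredoxin reductase, was 1 of 24 genes of the oxidative stress response (0.37, adjusted p = 0.047). None passed among 24 genes of amino acid metabolism, 19 of the acute phase, 18 of the unfolded protein and integrated stress responses, 17 of the interferon response, 18 of bile acids, 18 of xenobiotic metabolism, 14 of the clock, 14 immediate early genes, 13 heat shock genes, 11 LXR targets, 11 of growth arrest, 10 of metallothioneins and zinc, 7 of polyunsaturated fatty acid synthesis, and 15 nuclear receptors and their partners. Their medians lay between -0.31 (interferon) and 0.33 (heat shock). This holds for the brightest probeset of each gene. By any probeset, 1 gene of growth arrest and 1 of amino acid metabolism were higher, and 2 of polyunsaturated fatty acid synthesis were lower. Cdkn1a, of the growth arrest list, did not overlap. It had 4.50, 3.10, 3.38, 4.95 and 4.19 with C18:1, in part at the floor, and 5.80, 7.31, 5.55, 6.67 and 7.72 with C22:6. Among the receptors Ppara itself differed by 0.26 (-0.05 to 0.58), Rxra by -0.12 (-0.29 to 0.06), and the coactivator Ppargc1a by -1.14 (-2.06 to -0.23, adjusted p = 0.16).

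Markers of the other cells of the liver gave no call. The 12 Kupffer cell markers had a median of -0.39 and 1 positive difference. Their level, as the log2 of their mean linear signal, was 7.02 to 7.57 with C18:1 and 6.68 to 7.16 with C22:6. By the same measure, which follows the brightest markers, the 5 measured endothelial markers lay at 7.13 to 7.34 and 6.67 to 7.10, without overlap. Singly they had a median of -0.21 with 2 of the 5 differences positive, and none of them separated the groups. The 7 stellate cell markers lay at 7.48 to 7.77 and 7.44 to 7.75. Of the neutrophil and B cell markers 2 each were measured, of erythroid, adipocyte and acinar cell markers 1 each, and of T and NK cell, cholangiocyte and muscle markers none. Where only the 2 groups were fitted, the Kupffer cell genes Cd5l (-0.76, adjusted p = 0.039) and Clec4f (-0.47, adjusted p = 0.047) passed. The part of these levels in the 83 lower genes was not tested.

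The same pair of triglycerides was compared in PPARα-/- liver, on other arrays. There 12 genes were higher with C22:6 (0.18%) and 10 lower (0.15%), and none was among the 31 PPARα targets, whose median difference was -0.04 with 12 positive. Of these targets Cyp4a14, Cyp4a31, Vnn1 and Fgf21 were at the floor in both null groups and Cidec with C18:1 in both genotypes. Over the other 26 the median was -0.08 in null liver, with 7 positive, and 0.61 in WT liver. Among the 194 genes higher in WT liver 100 had a positive difference in null liver (51.5%, against 43.4% of all genes), with a median of 0.02. Among the 83 genes lower in WT liver 69 had a negative difference in null liver (83.1%, against 56.6% of all genes), with a median of -0.17 beside -0.03 for all genes. The higher genes had almost no common direction in null liver, whereas the lower genes kept a negative sign in most cases at a smaller size. In null liver all 12 Kupffer cell markers had positive differences (median 0.34), as did 17 of 19 acute phase genes (median 0.15). Of 17 interferon genes 0 had a positive difference there (median -0.81). No gene of these 3 lists passed in null liver, and what lies behind these shifts was not tested. The null count rested on single livers: it was 161 without null C22:6 replicate 4 (51 higher and 110 lower), 97 without replicate 1 (37 and 60), 82 without replicate 5 (24 and 58), 10 without replicate 3 and 2 without replicate 2, and 9 to 13 without null C18:1 replicate 1, 2, 3 or 5. By limma it was 0 where only the null groups were fitted (61 at an unadjusted p under 0.01) and 0 with a replicate block (53). Scamp1, a protein of membrane traffic, passed in both genotypes, lower by a similar amount (-0.55 in WT, adjusted p = 0.00091, and -0.49 in null liver, adjusted p = 0.027).

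Some targets have almost no signal without the receptor. Cyp4a14 lay between 1.74 and 2.90 in the null livers of both triglycerides, against 9.26 to 12.56 in the WT livers. The signal of Ppara was 10.47 to 11.34 in the 10 WT livers and at most 10.33 in the 10 null livers; which part of the transcript the probes read, and whether the deletion removes it, is not given in the sources used here, so it does not check the labels. Ehhadh was expressed in null liver, at 9.38 to 9.55 with C18:1 and 9.01 to 9.66 with C22:6, with a difference of -0.01.

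Tested directly, the difference between C22:6 and C18:1 was larger in WT than in null liver for 73 genes (1.1%) and smaller for 10 (0.15%). The total of 83 became 127 without null C22:6 replicate 4, 42 to 52 without WT C22:6 replicate 1 or 5 or WT C18:1 replicate 2 or 4, and 55 without null C22:6 replicate 2 or 3. It was 8 where only the 4 groups were fitted and 1 with a replicate block. Of the PPARα targets 9 of 31 passed, none of them with a group at the floor. The gap between the genotypes was 2.22 on the log2 scale for Acot1 (adjusted p = 0.004), 1.85 for Acot2 (0.02), 1.74 for Pex11a (0.0021), 1.60 for Ehhadh (0.0026) and 0.65 for Abcd3 (0.0018). Other genes with small p values were Arel1, a ubiquitin ligase (1.14, adjusted p = 0.00042), Elmod3 (1.86, 0.00046, with 3 of the null C22:6 arrays at the floor), the mitochondrial CoA carrier Slc25a42 (1.21, 0.0011) and the monoglyceride hydrolase Abhd6 (1.31, 0.0012). Cyp8b1, the sterol 12α-hydroxylase of bile acid synthesis, passed no test within a genotype (0.66 in WT and -0.90 in null liver) but differed between them by 1.55 (adjusted p = 0.004).

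A call in WT liver alone does not show a difference between genotypes. Pdk4 had 1.01 in null liver (adjusted p = 0.50) and the gap of 1.93 did not pass (adjusted p = 0.39), and for Cidec neither the null difference (adjusted p = 0.27) nor the gap (adjusted p = 0.41) passed; no size is given for either, since C18:1 was at the floor in both genotypes. Of the lower genes Spry4 passed (adjusted p = 0.043), with both null groups and WT C22:6 at the floor, so that the gap has no exact size. Insig1 did not pass (-0.31, adjusted p = 0.86), with -0.69 in null liver. On the other side Krt8, a hepatocyte keratin, was higher with C22:6 in null liver (1.06, adjusted p = 0.002) with -0.14 in WT liver, and the gap passed (-1.20, adjusted p = 0.0098). Fst, follistatin, also passed in null liver and for the gap (adjusted p = 0.0044 and 0.041), but it was at the floor in both WT groups, in null liver with C18:1 and in 3 of the 5 null livers with C22:6, so no size is given.

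**Figure D3:**
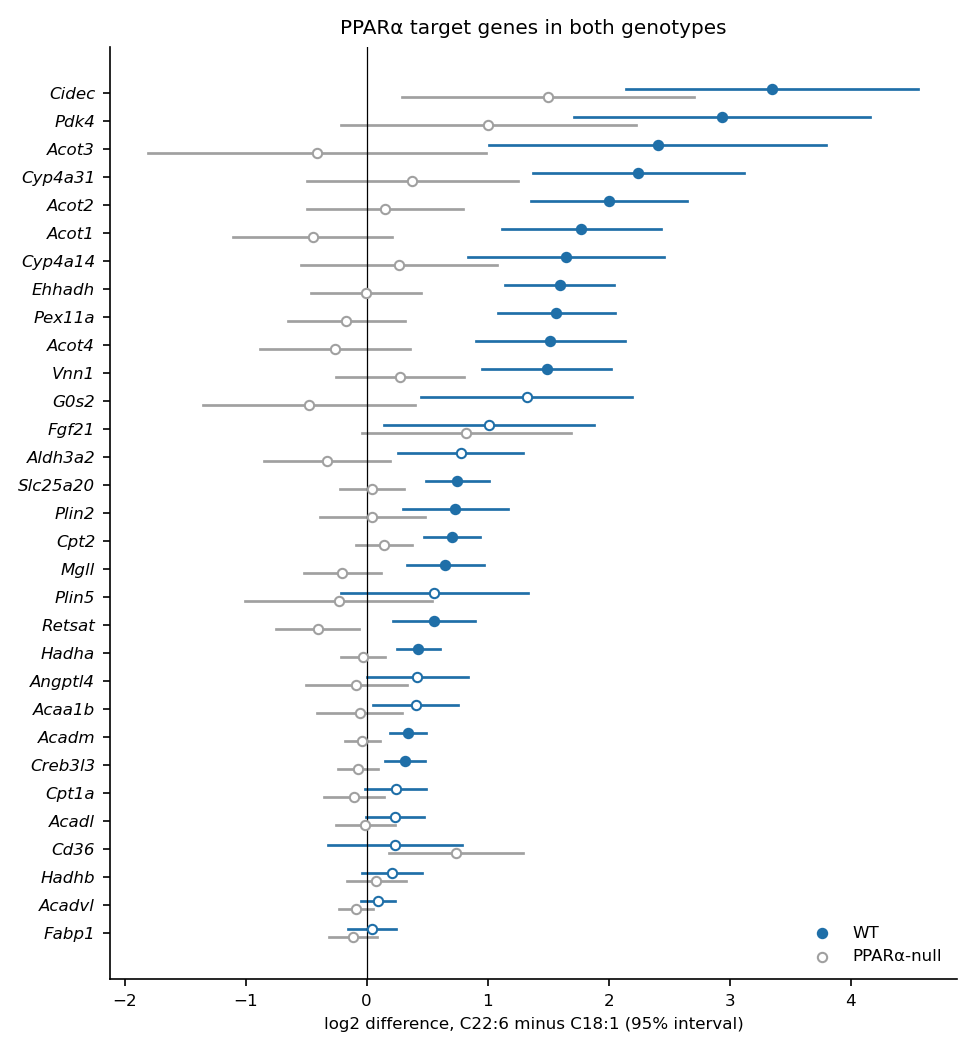
Log2 difference, C22:6 minus C18:1, with its 95% interval for the 31 measured PPARα targets in WT and in PPARα-/- liver, filled where the adjusted p was under 0.05. All 31 WT points lie above 0 (median 0.73) and 19 are filled, while the null points scatter around 0 (median -0.04) and none is filled. Null values of Cyp4a14, Cyp4a31, Vnn1, Fgf21 and Cidec and the WT value of Cidec are fitted values with at least 1 group at the floor.

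The PPARα agonist WY14643 was measured against the vehicle in WT mice that enter neither group. Of the 194 genes higher with C22:6 than with C18:1, 190 were on the positive side with WY14643 (97.9%, against 39.8% of all genes), with a median of 1.17 on the log2 scale. Of the 83 lower genes 80 were on the negative side (96.4%, against 60.2% of all genes), with a median of -0.69. Leaving out the members of every list gave 148 of 151 and 75 of 78, so the same held for genes outside the lists.

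Set against the vehicle, the triglycerides share their arrays with the contrast of C22:6 and C18:1, so the following values are a description. Against the vehicle, the 194 higher genes had a median of 0.62 with C22:6, 0.39 with C20:5 (eicosapentaenoic acid, 20 carbons and 5 double bonds) and -0.01 with C18:1. The 83 lower genes had -0.46, -0.19 and 0.12. For the 31 PPARα targets the medians were 0.78, 0.47 and 0.16, beside 1.62 with WY14643.

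Single genes took different places on this scale. In WT liver the mean log2 signal of Ehhadh was 10.46 ± 0.31 with vehicle (SD, n = 3), 10.62 ± 0.45 with C18:1, 11.45 ± 0.36 with C20:5, 12.22 ± 0.60 with C22:6 (n = 5 each) and 13.13 ± 0.08 with WY14643 (n = 4). The means of vehicle and C18:1 lay within their spread. Acot3 was 4.48 ± 2.28 with vehicle, 8.03 ± 1.12 with C18:1 and 10.44 ± 0.53 with C22:6, with every C18:1 liver (6.69 or more) above every vehicle liver (6.61 or less). Spry4 was 4.91 ± 0.67 with vehicle, 6.06 ± 0.76 with C18:1 and 4.53 ± 0.23 with C22:6, so that C18:1 was the high group. Avpr1a was 6.49 ± 0.35 with vehicle, 6.48 ± 0.61 with C18:1, 5.10 ± 0.40 with C22:6 and 3.54 ± 0.50 with WY14643, so that the means of vehicle and C18:1 were alike and C22:6 lay below both. The floor was at 4.86 to 4.98 in the vehicle arrays and at 4.83 to 4.91 in the WY14643 arrays. The means of Acot3 with vehicle, Spry4 with C22:6 and Avpr1a with WY14643 lay under the floor. These levels are therefore only bounds, and the distances from them have no exact size.

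**Figure D4:**
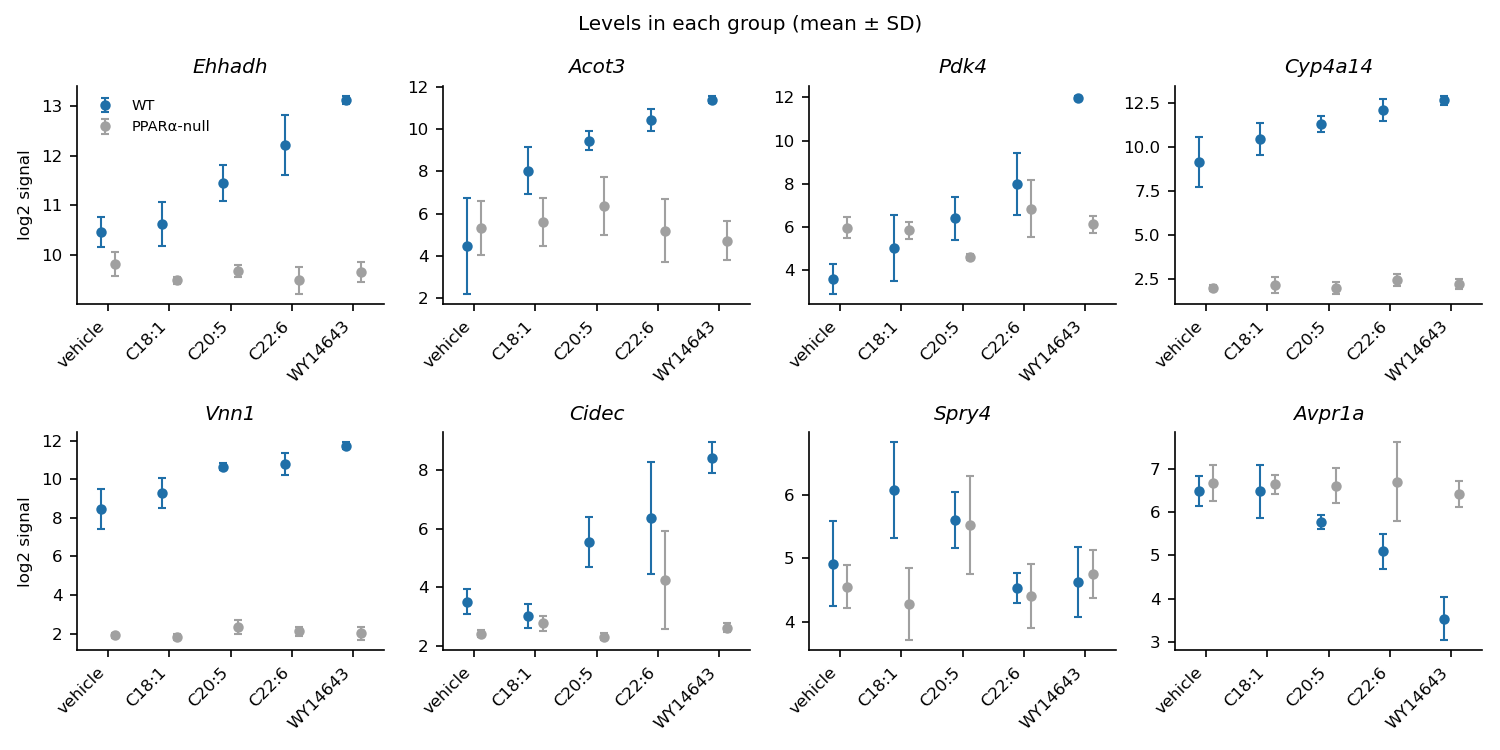
Mean log2 signal ± SD of 8 genes (panels, each with its own vertical axis) with vehicle, C18:1, C20:5, C22:6 and WY14643 in WT and PPARα-/- liver. In WT liver the order vehicle, C18:1, C20:5, C22:6, WY14643 is seen for Ehhadh (10.46, 10.62, 11.45, 12.22 and 13.13) and Pdk4 (3.60 with vehicle and 11.96 with WY14643), whereas Spry4 is highest with C18:1 (6.06). The Pdk4 mean with vehicle lies under the floor of those arrays (4.86 to 4.98), so this level is only a bound. Several null means are also at the floor, among them those of Cyp4a14 and Vnn1 with C18:1 and C22:6.

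C20:5 and C22:6, both long n-3 fatty acids, were the other pair compared at the same volume and time. By the same fit 1 gene was higher with C22:6 (0.015%) and 1 lower (0.015%), with 51 (0.766%) and 76 (1.14%) at an unadjusted p under 0.01. Alpl was higher by 1.17 (interval 0.69 to 1.66, adjusted p = 0.022), and Ppp1r14a, an inhibitor of myosin phosphatase, was lower (-1.66, -2.29 to -1.03, adjusted p = 0.0051). Both also passed against C18:1 (1.36 and -1.47, adjusted p = 0.00011 and 0.0014). These 2 pairs share the C22:6 arrays, and p-values were adjusted within each pair. Without C22:6 replicate 1 or 2 no gene passed (109 and 80 at an unadjusted p under 0.01), without C22:6 replicate 5 or C20:5 replicate 3 or 5, where only the groups of the contrast were fitted and with a replicate block no gene was higher, so Alpl was lost, and without C22:6 replicate 3 11 genes passed. That few genes passed does not show that the triglycerides act alike: the difference of C22:6 minus C20:5 was 0.76 for Ehhadh (adjusted p = 0.38), 1.57 for Pdk4 (0.57) and 1.01 for Acot1 (0.46), and the median over the 31 PPARα targets was 0.28, with 30 of 31 positive.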

How the data were processed

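Liver RNA was measured on Affymetrix whole-genome mouse arrays, 1 per mouse. The deposited intensity values were made by the authors with GC-RMA (GCRMA 2.20 per the labels) and the normalization that the methods call quartile, and probesets of low variation had been removed by them, so shares are shares of the variable probesets. The values are linear, and their log2 was taken. From 11463 probesets 51 control probesets were left out. Of the rest, 10279 carry 1 gene symbol by the platform annotation (10262 matched RefSeq by gene ID), 406 several and 727 none. A gene (6661) was read from its probeset with the highest mean log2 signal over all arrays.

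limma's moderated test was fitted to all 93 arrays with 1 mean per group and no trend, so all groups share the spread. P-values were adjusted by the method of Benjamini-Hochberg, using every one of the 11412 probesets. SE and 95% intervals come from this fit. Replicates are individual mice, which limits precision to 5 per group. A group was at the floor where each of its arrays was at or under its 10th percentile. In simulated data for C22:6 against C18:1 (11412 probesets, 100 changed at each size), 88% of changes of 1 and 97% of changes of 2 on the log2 scale were recovered, with 5 false calls. The simulated noise was independent between probesets and arrays, with 1 spread per probeset for all groups. Arrays that stand apart and livers that are low or high for many genes were not simulated. These figures therefore hold for that setting only.

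The comparison, the gene lists and the rules were chosen with earlier results of these data known. Picked by rule were the 15 largest differences each way past the threshold without overlap, up to 4 genes per list with the smallest p, genes that the study names, and the smallest p values of the other contrasts. Not every picked gene is described, and on the lower side genes such as Sh3yl1 and Serpinb8 were left out. Further members of a family, such as Acot4 and Vnn1, and genes given for the absence of a call were chosen after their values were seen. The 37 arrays of C18:2, C18:3, C10:0 and the second control had a median signal of 153.6 to 167.3; all groups used here are among the other 56 arrays (135.4 to 145.0). Alternatives included filters, the arrays in the fit, an intensity trend, array weights, centring, quantile normalization, a pseudocount of 16, a replicate block and each array left out. Work was done in R 4.3.3 (limma 3.58.1) and Python 3.11.15 (pandas 2.3.3, scipy 1.17.1, matplotlib 3.10.9).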

Additional observations from a re-analysis of the deposited data

Results flagged for a closer look

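Of 86 sets of 5 values examined, 8 had a value that stood far from the other 4. A set held the signals of 1 gene, or the mean correlations, in the 5 arrays of a group. For independent sets chance gives about 1 in 20. These sets share their arrays, and some genes were picked for a lack of overlap, so 8 of 86 cannot be held against that rate. Replicate 5 of both groups stood apart in its mean correlation with its group, 0.9587 for C18:1 and 0.9704 for C22:6. C18:1 replicate 1 was high for Acot2 (log2 signal 6.79), Cd36 (8.94) and Syt1 (6.57), and C18:1 replicate 4 for Haus1 (5.45). C22:6 replicate 3 was low for Crat (8.37) and Pctp (9.08).

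The difference between C22:6 and C18:1 was not the same in WT and PPARα-/- liver, by the limma test of the difference itself, for 83 genes. Among the genes with the largest differences in WT liver, WT minus null was 1.85 on the log2 scale for Acot2, 1.41 for Alpl, 1.28 for Cbfa2t3, 0.91 for Ddhd2, 1.60 for Ehhadh, 1.94 for Lamb3, 1.82 for Pctp, 1.74 for Pex11a, 2.11 for Rfx4 and -1.66 for Spry4. At least 1 of the 4 groups was at the floor for Alpl, Cbfa2t3, Rfx4 and Spry4, so their fitted values give no exact size, and Lamb3 was at the floor in all 4 groups, so its value shows no level.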

How the results depend on the processing

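The sign of the genes called in WT liver was kept under every alternative, for all 277 except under the filters, where 265 and 259 of them were tested, and the count stayed within 1.5 times under filters, intensity trend, centring, quantile normalization, pseudocount and the fit without the C18:2, C18:3, C10:0 and second control arrays. It was 730 with array weights (376 higher and 354 lower, that is 51.5% higher against 70.0%), 116 where only the 2 groups were fitted (91 of the 277) and 153 without replicate 5 of both groups, a choice made after seeing the data (131 of the 277). Leaving out 1 array gave 144 (without C22:6 replicate 5) to 351 (without C22:6 replicate 3). In null liver 22 genes became 5 with array weights, 9 without those arrays, 34 with the pseudocount, 52 with quantile normalization (44.2% higher against 54.5%), 2 to 161 without 1 array, and by limma 0 where only the null groups were fitted (61 at an unadjusted p under 0.01). The 83 genes that differed between genotypes became 8 where only the 4 groups were fitted and 42 to 127 without 1 array. The 2 genes of C22:6 against C20:5 became 119 with array weights, 1 where only their groups were fitted and 0 to 11 without 1 array. Where only the 2 groups were fitted, 7 of the 19 higher PPARα targets were left in number, 3 of 10 genes of mitochondrial oxidation, 3 of 6 of peroxisomal oxidation, 2 of 5 of peroxisome assembly, 4 of 7 of thioesterases and ω-oxidation and 0 of 5 of lipid droplets (6 at an unadjusted p under 0.01). Without replicate 5 of both groups the counts for peroxisomal oxidation, peroxisome assembly and lipid droplets were 3 each, and without 1 array they were 3 to 6, 5 and 3 to 6.

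Same-numbered arrays deviated together more in some pairs than in others (correlations 0.03 to 0.39 for C22:6 and C18:1 in WT liver, -0.28 to 0.29 in null liver and 0.02 to 0.34 for C22:6 and C20:5). In WT liver all of these were positive. For C22:6 replicate 5 they were 0.39 with C18:1 and 0.33 with C20:5, above every pair of unlike number (at most 0.27 and 0.22). C22:6 replicate 2 was also above every pair of unlike number with C20:5 (0.34), but not with C18:1 (0.03). C20:5 replicate 5 also stood apart, with a mean correlation with its group of 0.968 (0.979 to 0.983 for the others). What same-numbered mice shared was not tested. The main fit took no pairs, and a replicate block was fitted as an alternative. With a replicate block in a fit of the groups compared, the counts were 84 in WT liver (64 of the 277), 0 in null liver (53 at an unadjusted p under 0.01), 1 for the difference between genotypes, 1 against C20:5, 11 PPARα targets, 3 genes of mitochondrial oxidation, 2 of peroxisomal oxidation, 1 of peroxisome assembly and 2 of lipid droplets.

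Of 66 genes picked by the naming rules and called in WT liver, 44 passed without replicate 5 of both groups, 34 where only the 2 groups were fitted and 29 with the block. The causes were not tested. With 5 mice per group, signals near the floor and small differences are least certain, and the deposited probesets had been chosen for their variation.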
